A study of Homo sapiens with 12 samples.

Results

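The genes described here serve MHC class I antigen presentation in MIA PaCa-2, a line established from a human pancreatic carcinoma. They were taken by symbol for their known roles: the class I heavy chains HLA-B and HLA-C, beta-2 microglobulin (B2M), the peptide transporter subunits TAP1 and TAP2, tapasin (TAPBP), and the immunoproteasome subunits PSMB8, PSMB9 and PSMB10. Of these 9 genes, 5 are among the 15090 genes listed: HLA-B, HLA-C, B2M, TAPBP and PSMB10. TAP1, TAP2, PSMB8 and PSMB9 are not in the table analysed here and are not described. Each of the 5 reached 1 RPM (reads per 1000000) in all 12 libraries, so all 5 were among the 12789 genes tested.

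The 12 libraries were made from total RNA and form 4 groups of 3: 40 mM L-glutamine with 0.5 µM gemcitabine, 40 mM L-glutamine without drug, 2 mM L-glutamine with 0.5 µM gemcitabine, and 2 mM L-glutamine without drug, each at 48 h. Gemcitabine is a deoxycytidine analogue that blocks DNA synthesis. All groups were the same line, labelled WT, in glutamine-free RPMI 1640 to which glutamine had been added back, so these samples come from a single tumour line and hold no host tissue by design. The series calls the 3 libraries of a group biological replicates, and the p-values measure the spread between them. The recovered reads numbered 21723094 to 32811746 per library.

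Class I molecules show peptides from inside the cell to CD8+ T cells and are also read by receptors of NK cells. Proteasomes cut proteins into peptides, and in the immunoproteasome the catalytic subunits PSMB8, PSMB9 and PSMB10 take the places of PSMB5, PSMB6 and PSMB7. TAP carries the peptides into the endoplasmic reticulum, where tapasin helps to load them onto a heavy chain paired with B2M, and interferons are known to induce most of these genes.

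The promoters of the 5 genes are shown because the drug-treated and untreated groups of each did not overlap at either glutamine concentration. Groups did not overlap for 40.6% of all tested genes at 40 mM and for 46.1% at 2 mM. TAPBP at 2 mM and PSMB10 at 40 mM missed the test threshold (limma adjusted p = 0.116 and 0.0626). Class I promoters are also known for a compact block of interferon, NF-kappaB and NF-Y elements. Each sequence runs 5′ to 3′ over the RefSeq window (GRCh38.p14) from 250 bases before to 50 bases after the start site, on the gene's own strand, so it holds the promoter and the first transcribed bases. Capitals mark matches, on either strand, to the core of an interferon-stimulated response element (GAAA, any 2 bases, then GAAA), to its shorter form GAANNGAAA, to GGGGATT, part of an NF-kappaB site, and to CCAAT, the box bound by NF-Y. The windows lie at chr6:31357130-31357429 (minus strand) for HLA-B, chr6:31272043-31272342 (minus) for HLA-C, chr15:44711267-44711566 (plus) for B2M, chr6:33314029-33314328 (minus) for TAPBP and chr16:67936801-67937100 (minus) for PSMB10.
HLA-B: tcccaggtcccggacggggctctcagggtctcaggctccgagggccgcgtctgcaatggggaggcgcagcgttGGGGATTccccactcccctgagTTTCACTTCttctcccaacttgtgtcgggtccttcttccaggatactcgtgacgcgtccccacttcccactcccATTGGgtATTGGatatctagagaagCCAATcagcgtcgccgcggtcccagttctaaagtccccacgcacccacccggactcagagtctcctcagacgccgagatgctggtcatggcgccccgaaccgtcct
HLA-C: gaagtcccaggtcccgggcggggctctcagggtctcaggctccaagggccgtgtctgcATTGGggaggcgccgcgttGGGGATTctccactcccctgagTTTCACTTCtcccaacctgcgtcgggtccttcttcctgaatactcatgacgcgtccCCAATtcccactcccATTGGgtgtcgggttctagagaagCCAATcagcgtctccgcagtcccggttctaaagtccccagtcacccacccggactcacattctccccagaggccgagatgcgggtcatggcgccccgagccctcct
B2M: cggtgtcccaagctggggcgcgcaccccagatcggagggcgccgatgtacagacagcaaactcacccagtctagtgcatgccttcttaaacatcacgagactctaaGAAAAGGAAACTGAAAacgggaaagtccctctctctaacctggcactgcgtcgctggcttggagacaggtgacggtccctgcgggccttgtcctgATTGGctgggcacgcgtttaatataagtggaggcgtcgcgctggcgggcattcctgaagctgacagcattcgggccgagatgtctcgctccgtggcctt
TAPBP: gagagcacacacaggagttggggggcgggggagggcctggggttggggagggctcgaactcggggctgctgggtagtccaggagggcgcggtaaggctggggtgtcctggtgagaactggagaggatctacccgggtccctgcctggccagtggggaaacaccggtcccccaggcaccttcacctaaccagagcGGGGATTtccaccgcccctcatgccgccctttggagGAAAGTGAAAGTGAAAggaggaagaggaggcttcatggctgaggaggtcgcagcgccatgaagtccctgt
PSMB10: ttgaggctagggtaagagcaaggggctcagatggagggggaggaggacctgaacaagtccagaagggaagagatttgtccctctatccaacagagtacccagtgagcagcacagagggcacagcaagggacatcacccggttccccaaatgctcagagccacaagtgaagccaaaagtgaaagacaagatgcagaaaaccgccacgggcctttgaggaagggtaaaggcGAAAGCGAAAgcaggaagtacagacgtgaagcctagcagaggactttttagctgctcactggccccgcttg

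The HLA-B and HLA-C windows were near copies: 269 of 296 aligned bases (90.9%) were identical, against 59.8% between HLA-B and B2M, 65.7% between HLA-B and TAPBP and 59.2% between HLA-B and PSMB10. The full interferon core was found in 3 of the 5 windows and in 3.57% of 35116 RefSeq windows of this length. B2M held 2 overlapping copies at −144 to −129, TAPBP held 2 overlapping copies at −20 to −5, and PSMB10 held 1 copy at −21 to −12. HLA-B and HLA-C had no match to it and carried GAANNGAAA on the opposite strand instead, at −155 to −147 and at −151 to −143, a sequence found in 7.66% of windows. GGGGATT, found in 3.55% of windows, stood upstream of that match in HLA-B and HLA-C, at −177 to −171 and at −173 to −167, and at −56 to −50 in TAPBP. CCAAT, found in 34.6% of windows, occurred 3 times in HLA-B, 4 times in HLA-C and 1 time in B2M, with no match in TAPBP or PSMB10. The NF-kappaB part GGGAAA, found in 26.3% of windows, matched in B2M and TAPBP, and the STAT core TTCNNNGAA, found in 7.66%, matched in none of the 5. GAANNGAAA and CCAAT were added after the sequences had been seen. Letters that match do not show that a factor binds.

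**Figure D1:**
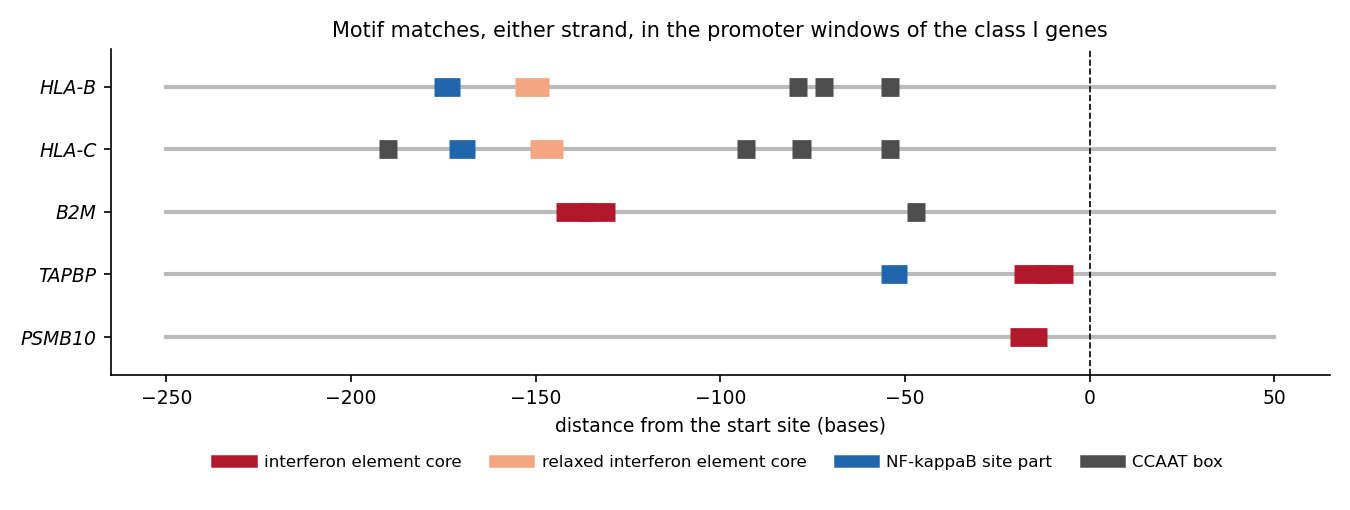
Motif matches on either strand in the promoter windows, by distance in bases from the start site (dashed line), with a row for each gene. HLA-B and HLA-C both hold, toward the start site, an NF-kappaB part, the shorter interferon core and CCAAT boxes, and HLA-C has a further CCAAT box upstream of these; in TAPBP and PSMB10 the interferon core lies within 21 bases of the start.

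Cells treated with gemcitabine held more HLA-B, HLA-C and B2M RNA at both glutamine concentrations, and less TAPBP RNA at 40 mM. At 40 mM glutamine 3 of the 5 genes rose and 1 fell (limma, adjusted p under 0.05 over all genes tested), where 14.1% of all tested genes rose and 16.2% fell (30.3% in either direction). At 2 mM glutamine 4 rose and 0 fell, where 17.5% of all tested genes rose and 17.1% fell (34.6%). No gene of the 5 had an unadjusted p under 0.05 for a fall at 2 mM: the count was 0. With voom weights, 0 of the 5 were called lower there at an adjusted p under 0.05. All 5 genes had groups that did not overlap in each drug comparison, 4 higher and 1 lower with the drug, while groups did not overlap for 40.6% of tested genes at 40 mM (19.2% higher, 21.4% lower) and for 46.1% at 2 mM (23.2% higher, 22.8% lower). The median log2 fold change of the 5 was 0.42 at 40 mM and 0.34 at 2 mM, beside −0.01 and −0.00 over all tested genes.

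**Figure D2:**
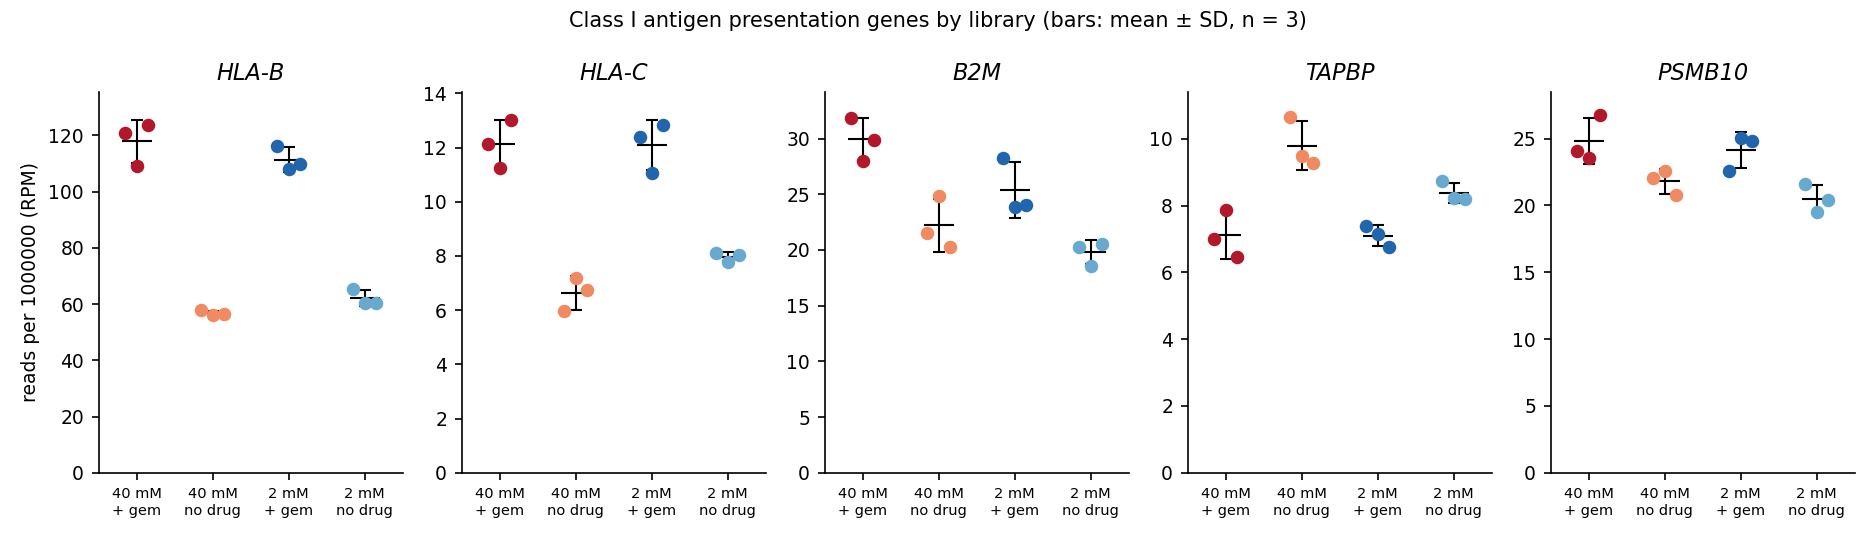
Level of each gene in RPM by library (dots), with the mean and SD of each group (n = 3). For HLA-B the 3 drug-treated libraries at 40 mM lie at 109.1 to 123.6 RPM and the 3 untreated ones at 55.9 to 57.7 RPM; TAPBP runs the other way, at 6.47 to 7.87 RPM with the drug and 9.28 to 10.7 RPM without.

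HLA-B, a heavy chain that holds the peptide and is read by the T cell receptor, had the largest and most precise change of the 5. At 40 mM glutamine it had 120.8, 109.1 and 123.6 RPM with gemcitabine, against 57.7, 55.9 and 56.5 RPM without drug. The 2 mM libraries had 116.2, 107.9 and 109.9 RPM with gemcitabine, against 65.5, 60.5 and 60.5 RPM without drug. All 6 treated libraries stood above all 6 untreated ones. Its log2 fold change was 1.04 ± 0.046 at 40 mM (SE; 2.06-fold, limma adjusted p = 1.26e-18) and 0.83 ± 0.046 at 2 mM (1.78-fold, limma adjusted p = 6.04e-16). By mean level the groups ran in the order 40 mM with drug (118 ± 7.67 RPM, SD), 2 mM with drug (111 ± 4.34), 2 mM without drug (62.2 ± 2.92) and 40 mM without drug (56.7 ± 0.92), and the neighbours with the same drug treatment did not pass the test against each other.

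HLA-C, the heavy chain best known as a ligand of NK cell receptors, followed HLA-B at a lower level. At 40 mM it had 12.1, 11.3 and 13.0 RPM with gemcitabine, against 5.96, 7.18 and 6.75 RPM without drug. In 2 mM glutamine the values were 12.4, 11.1 and 12.8 RPM with gemcitabine, against 8.10, 7.79 and 8.04 without drug, in RPM. The treated libraries again stood above all untreated ones, and the lowest values were those at 40 mM without drug. The log2 fold change was 0.79 ± 0.102 at 40 mM (SE, limma adjusted p = 1.79e-07) and 0.54 ± 0.102 at 2 mM (limma adjusted p = 7.45e-05), on the scale of log2(RPM + 1), which understates changes of low genes. As ratios of group means in RPM, HLA-C was 1.83-fold higher at 40 mM and 1.52-fold higher at 2 mM. These values rest on 141 to 416 reads per library, for which counting error alone gives 8.42% to 4.90%, against 1333 to 3564 reads and 2.74% to 1.68% for HLA-B. The coding sequences of heavy chains are closely alike, so reads of one may have been assigned to another or dropped in counting, and the values of HLA-B and HLA-C apart are uncertain to that extent.

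The sum of HLA-B and HLA-C is less open to reads passing between them. It came to 132.9, 120.4 and 136.6 RPM at 40 mM with gemcitabine, against 63.7, 63.1 and 63.2 RPM without drug. For 2 mM the sum was 128.6, 119.0 and 122.7 RPM with gemcitabine, against 73.6, 68.3 and 68.5 RPM without drug. The summed level was thus 2.05-fold higher with the drug at 40 mM and 1.76-fold higher at 2 mM, with no overlap in either case (exact permutation test, two-sided, p = 0.1 for each, the smallest that 3 against 3 allows; adjusted p = 0.171 over 12 such tests). HLA-C made up 9.14% to 9.54% of the sum at 40 mM with drug and 9.36% to 11.4% without, groups that overlap, and 9.29% to 10.5% at 2 mM with drug and 11.0% to 11.7% without, groups that do not overlap. The difference of the mean share was −1.12 percentage points at 40 mM (exact permutation p = 0.3, adjusted p = 0.3) and −1.59 at 2 mM (exact permutation p = 0.1, adjusted p = 0.171).

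B2M, the light chain that class I heavy chains need for stable display at the cell surface, rose less than the heavy chains in fitted value. At 40 mM it had 31.9, 28.0 and 29.9 RPM with gemcitabine, against 21.5, 24.9 and 20.3 RPM without drug. With 2 mM glutamine B2M had 28.3, 23.8 and 24.0 RPM with gemcitabine, against 20.3, 18.6 and 20.5 RPM without drug. Within each glutamine concentration the treated libraries stood above the untreated ones, but the untreated library at 24.9 RPM lies above 2 treated libraries at 2 mM. The log2 fold change was 0.42 ± 0.079 at 40 mM (SE, limma adjusted p = 9.68e-05) and 0.34 ± 0.079 at 2 mM (limma adjusted p = 0.000992). The RPM of B2M relative to the summed RPM of HLA-B and HLA-C was 0.219 to 0.240 at 40 mM with drug and 0.321 to 0.394 without drug, and 0.195 to 0.220 at 2 mM with drug and 0.272 to 0.300 without drug. That ratio was lower in every treated library than in every untreated one, and its difference was not tested.

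Tapasin, the chaperone that bridges the TAP transporter and the empty heavy chain, was the 1 gene of the 5 with lower levels under the drug. TAPBP had 6.99, 7.87 and 6.47 RPM at 40 mM with gemcitabine, against 10.7, 9.48 and 9.28 RPM without drug. In the 2 mM libraries its level was 7.38, 7.15 and 6.75 RPM with gemcitabine, against 8.73, 8.24 and 8.19 RPM without drug. All 6 treated libraries lay below all 6 untreated ones. The log2 fold change was −0.41 ± 0.106 at 40 mM (SE, limma adjusted p = 0.00262); at 2 mM it was −0.21 ± 0.106 and missed the threshold (limma adjusted p = 0.116), with a 95% interval of −0.43 to 0.00. The TAPBP values rest on 154 to 253 reads per library. Without the mean-variance trend the value at 2 mM passed (limma adjusted p = 0.0381).

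PSMB10, the immunoproteasome subunit with trypsin-like activity, was higher with the drug by small margins. At 40 mM it had 24.1, 23.6 and 26.8 RPM with gemcitabine, against 22.1, 22.6 and 20.8 RPM without drug. The corresponding levels at 2 mM were 22.6, 25.0 and 24.8 RPM with gemcitabine, against 21.6, 19.5 and 20.4 RPM without drug. Treated libraries stood above untreated ones within each concentration by a narrow gap. The log2 fold change was 0.23 ± 0.073 at 2 mM, past the threshold (SE, limma adjusted p = 0.0146), and 0.18 ± 0.073 at 40 mM, where it missed it (limma adjusted p = 0.0626). PSMB10 no longer passed at 2 mM after removal of replicate 2 of the untreated libraries, or of replicate 2 or 3 of the treated ones (0.19, 0.20 and 0.21; limma adjusted p = 0.0652, 0.0686 and 0.0616), while RPM without the scaling factors brought the value at 40 mM past the threshold (0.22, limma adjusted p = 0.0220).

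PSMB7 is the constitutive subunit that PSMB10 replaces, and it did not rise with the drug. PSMB7 had 97.3 ± 3.30 RPM at 40 mM with gemcitabine and 108 ± 2.28 RPM without drug (SD, n = 3), and it fell there by 0.16 on the log2 scale (limma adjusted p = 0.00197). In 2 mM glutamine PSMB7 had 111 ± 3.36 RPM with gemcitabine and 109.8 ± 1.60 RPM without drug, a log2 fold change of 0.01 (limma adjusted p = 0.799). Relative to PSMB7, PSMB10 stood at 25.7%, 23.5% and 27.3% of its RPM at 40 mM with gemcitabine, against 19.9%, 20.9% and 19.5% without drug. The 2 mM values were 20.7%, 23.1% and 21.6% with gemcitabine, against 19.8%, 17.5% and 18.7% without drug. The highest 3 ratios are the treated libraries at 40 mM, and the groups did not overlap in either drug comparison. The log2 ratio was higher with the drug by 0.33 at 40 mM and by 0.21 at 2 mM (exact permutation test, two-sided, p = 0.1 for each, the smallest possible; adjusted p = 0.171). PSMB5 and PSMB6, the partners of PSMB8 and PSMB9, had log2 fold changes of −0.07 and −0.01 at 40 mM and of 0.01 and 0.05 at 2 mM, and neither passed the test.

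**Figure D3:**
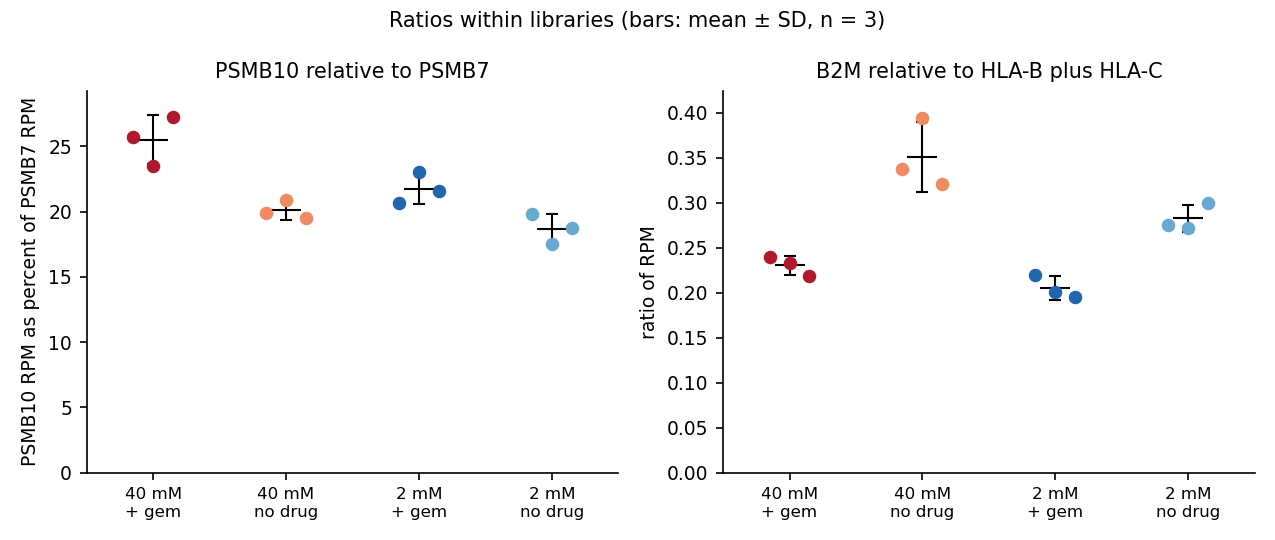
PSMB10 RPM as a percentage of PSMB7 RPM (left) and the ratio of B2M RPM to the summed RPM of HLA-B and HLA-C (right) in each library (dots), with group mean and SD (n = 3). The first ratio is highest at 40 mM with gemcitabine, 23.5% to 27.3%; the second is lower in all 6 treated libraries than in all 6 untreated ones.

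For each of the 5 genes, both log2 fold changes between glutamine concentrations were smaller in size than both with the drug. These comparisons use the same libraries as the drug comparisons above, so the values are not independent of them. Among drug-treated cells, B2M averaged 29.9 ± 1.93 RPM in 40 mM glutamine, against 25.4 ± 2.54 RPM in 2 mM (SD, n = 3), and it rose by 0.23 ± 0.079 on the log2 scale (SE, limma adjusted p = 0.0317). It was the only 1 of the 5 past the threshold there, with 0 lower, where 8.62% of all tested genes rose and 13.0% fell (21.6% in either direction). Its groups overlapped, as did those of the other 4 genes, since the lowest library at 40 mM had 28.0 RPM and the highest at 2 mM had 28.3 RPM; groups did not overlap for 37.4% of tested genes (17.0% higher, 20.5% lower). B2M no longer passed after removal of replicate 2 or 3 of the drug-treated 2 mM group, or of replicate 1 or 3 of the drug-treated 40 mM group (0.19, 0.20, 0.19 and 0.23; limma adjusted p = 0.149, 0.139, 0.154 and 0.0706). HLA-B, HLA-C, TAPBP and PSMB10 had log2 fold changes of 0.08, 0.01, −0.00 and 0.04.

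Without drug, 0 of the 5 genes rose and 0 fell between 40 and 2 mM glutamine (limma), where 8.41% of all tested genes rose and 9.12% fell (17.5% in either direction). Of the 5, 2 genes, both heavy chains, had an unadjusted p under 0.05 for a lower level, 0 had it for a higher one, and voom weights gave 0 calls. HLA-B averaged 56.7 ± 0.92 RPM in 40 mM glutamine, against 62.2 ± 2.92 RPM in 2 mM, and HLA-C averaged 6.63 ± 0.62 RPM in 40 mM, against 7.98 ± 0.16 RPM in 2 mM (SD, n = 3). The groups did not overlap for either heavy chain, lower at 40 mM, nor for TAPBP, higher at 40 mM, while 31.1% of tested genes had groups that did not overlap (15.4% higher, 15.8% lower). HLA-B lay next to the threshold, at −0.13 ± 0.046 (SE, limma adjusted p = 0.0504), and passed it in 7 of 23 alternative analyses. HLA-C had a log2 fold change of −0.24 ± 0.102 (limma adjusted p = 0.103), TAPBP 0.20 ± 0.106 (limma adjusted p = 0.195), B2M 0.15 ± 0.079 (limma adjusted p = 0.180) and PSMB10 0.09 ± 0.073 (limma adjusted p = 0.455).

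The drug's effect was compared between the glutamine concentrations by an interaction term, the log2 fold change at 40 mM minus that at 2 mM. None of the 5 passed (0 higher and 0 lower, beside 0.727% and 1.47% of all tested genes, or 2.20% in either direction); 1 gene, HLA-B, had an unadjusted p under 0.05, and voom weights gave 0 calls. The difference was 0.21 ± 0.066 for HLA-B (SE, limma adjusted p = 0.0876, 95% interval 0.07 to 0.34) and 0.24 ± 0.144 for HLA-C (limma adjusted p = 0.427, 95% interval −0.05 to 0.54). B2M stood at 0.08, PSMB10 at −0.05 and TAPBP at −0.20, with adjusted p of 0.801, 0.876 and 0.558. With RPM left without the scaling factors HLA-B passed at 0.24 (limma adjusted p = 0.0495), with quantile normalization at 0.25 (0.0467), and without replicate 2 at 40 mM with drug at 0.26 (0.0350).

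**Figure D4:**
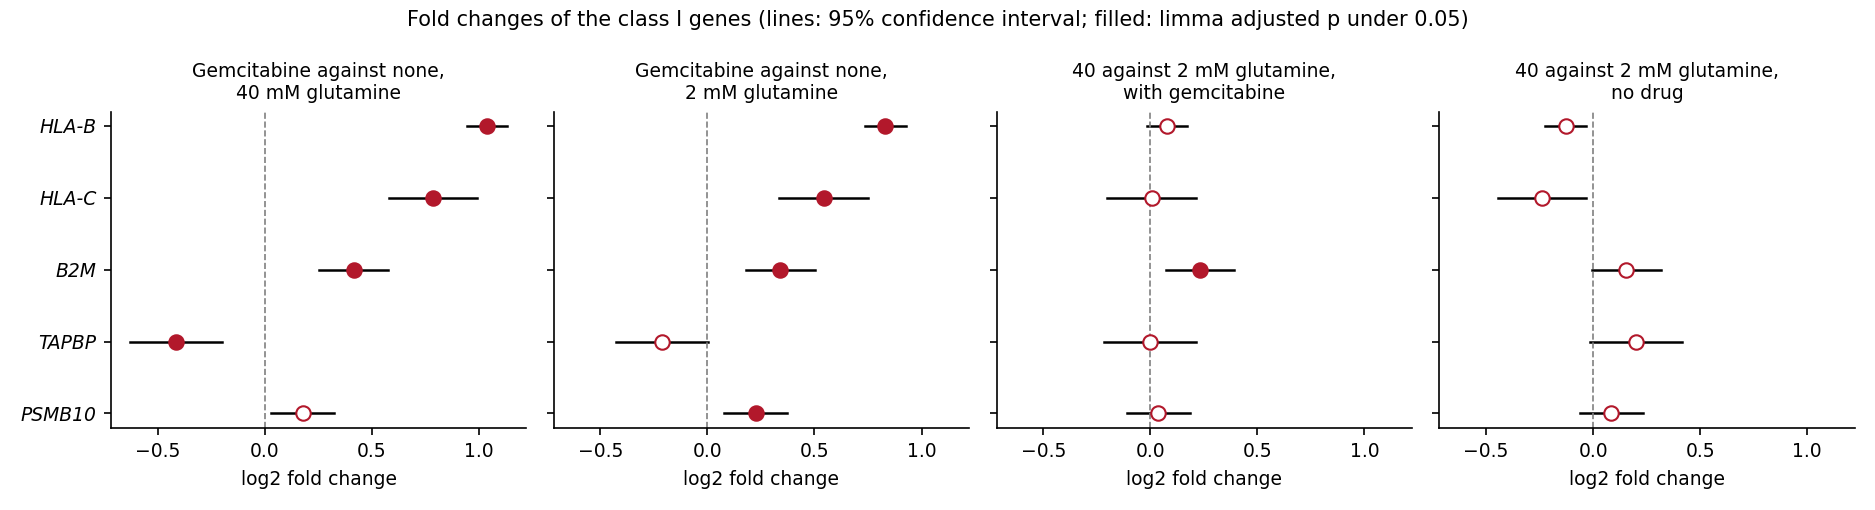
Log2 fold change of each gene (dots) with its 95% confidence interval (lines) in the drug comparison at 40 mM and at 2 mM glutamine and in the comparison of 40 with 2 mM glutamine with and without drug; filled dots passed limma's adjusted p of 0.05. Drug effects on HLA-B (1.04 and 0.83) lie farthest from 0, TAPBP lies on the other side (−0.41 and −0.21), and the glutamine panels stay between −0.24 and 0.23.

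Per kilobase of transcript (median length of the protein-coding transcripts in GENCODE 29), the mean level over all 12 libraries was 100.8 RPM per kb for HLA-B, higher than 87.9% of the 11337 tested genes with a length. PSMB10 (26.0 RPM per kb) and B2M (24.0) stood at the 60.3 and 58.3 percentiles, and HLA-C (7.73) and TAPBP (5.43) at the 30.6 and 24.6 percentiles. The B2M level per kb was thus below that of the heavy chain HLA-B in every group: 29.6 against 136.5 RPM per kb at 40 mM with drug, 22.0 against 65.7 at 40 mM without drug, 25.1 against 129.0 at 2 mM with drug and 19.6 against 72.0 at 2 mM without drug. These levels depend on the lengths used: 863 bases for HLA-B, 1256 for HLA-C, 1012 for B2M, 1492.5 for TAPBP and 878.5 for PSMB10. The shorter length of HLA-B raises its level per kb relative to HLA-C and B2M.

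Across the 12 libraries the log2 values of HLA-B and HLA-C had a Pearson r of 0.968, and HLA-C and TAPBP had −0.949; both describe libraries that fall into 4 groups, and after removal of the group means they were 0.413 and −0.732. The 8 genes most like the mean of the 5 over the 12 libraries were OASL (r = 0.983), RSAD2 (0.982), IFIT5 and IFIT1 (0.981 each), IFIT3 (0.980), ISG15, SEPTIN6 and GLDC (0.979 each). Among the genes most like HLA-B were HIP1R (0.986) and CSF3 (0.985), and the 3 most like HLA-C were SCRN1 (0.982), CDCA2 (0.979) and TPX2 (0.977). For B2M they were LAMC3 (0.968), CKAP2L (0.966) and KIF20B (0.954), for TAPBP TLE5 (0.944), PSD4 (0.939) and MGAT5B (0.937), and for PSMB10 FUCA2 (0.931), MAD2L1 (0.925) and LRR1 (0.921).

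The rest of the pathway was read from fixed lists. The 12 interferon-stimulated reference genes, antiviral effectors used here as a yardstick, changed more than the class I genes: 12 rose and 0 fell at 40 mM, with a median log2 fold change of 1.41, and 11 rose and 0 fell at 2 mM, with a median of 1.31. Their summed level was 1069.5 to 1107 RPM at 40 mM with gemcitabine and 380.2 to 403 RPM without drug, and 861 to 883 RPM at 2 mM with gemcitabine and 326 to 351 RPM without drug. The ubiquitin-like ISG15 rose by 2.00 at 40 mM and by 1.83 at 2 mM, both above HLA-B. IFIT1, which binds viral RNA, rose by 1.28 at 40 mM and 0.87 at 2 mM, and here the difference between the concentrations passed (0.41, limma adjusted p = 0.000112). Of 8 interferon genes, 1 was in the table analysed, IFNL1, at most 0.587 RPM in any library and not tested.

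Genes that sense interferon and switch on class I promoters held calls in both directions. Over all tested genes, 30.3% were called in either direction at 40 mM and 34.6% at 2 mM. Of 18 class I transcription regulators, 5 rose and 4 fell at 40 mM (median 0.09), and 6 rose and 5 fell at 2 mM (median 0.03). IRF9, a DNA-binding factor at interferon response elements, rose by 0.61 at 40 mM and 0.22 at 2 mM. STAT3 fell by 0.22 at 40 mM and by 0.18 at 2 mM, and EZH2, a histone methyltransferase known to silence class I genes in some tumours, rose by 0.21 and 0.33 (limma adjusted p from 2.40e-07 to 0.0279 over these 6 values). Of 14 interferon receptor and signalling genes, 4 rose and 1 fell at 40 mM, and 2 rose and 1 fell at 2 mM. USP18, a brake on type I interferon signalling, rose by 0.75 at 40 mM and 0.58 at 2 mM, JAK1 rose by 0.16 and 0.13, and the receptor chain IL10RB fell by 0.23 and 0.31. JAK2 rose by 0.38 at 40 mM (limma adjusted p = 0.00864) and had −0.07 at 2 mM (adjusted p = 0.688), with a difference of 0.44 that did not pass (adjusted p = 0.140).

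Among 12 other peptide loading and trimming genes, 2 rose and 2 fell at 40 mM (median 0.02), and 6 rose and 1 fell at 2 mM (median 0.14). Calls in either direction covered 30.3% of all tested genes at 40 mM and 34.6% at 2 mM. TAPBPL, the tapasin-related peptide editor, went against TAPBP: it had 9.23 ± 0.74 RPM at 40 mM with gemcitabine and 6.96 ± 1.07 RPM without drug, and 9.54 ± 0.67 RPM at 2 mM with gemcitabine and 5.23 ± 0.26 RPM without drug (SD, n = 3). TAPBPL rose by 0.37 at 40 mM and 0.76 at 2 mM (limma adjusted p = 0.0123 and 2.36e-06). PDIA3, the oxidoreductase that pairs with tapasin, rose by 0.12 and 0.16, the endosomal peptidase LNPEP fell by 0.22 and 0.25, and the cytosolic peptidase BLMH fell by 0.15 at 40 mM and had −0.04 at 2 mM. Among 5 other class I and class I-like chains, 2 rose and 2 fell at each concentration. PROCR, the endothelial protein C receptor, rose by 0.96 and 0.71, MR1, which presents vitamin metabolites, fell by 0.18 and 0.30, and HFE, which binds the transferrin receptor, fell by 0.44 and 0.26, while FCGRT had −0.14 and −0.10.

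Proteasome genes outside the immunoproteasome changed little in size. The counts here stand beside 14.1% of all tested genes higher and 16.2% lower at 40 mM. The shares at 2 mM were 17.5% higher and 17.1% lower. Of 15 other 20S subunits and assembly factors, 7 rose and 0 fell at 40 mM (median 0.08), and 6 rose and 0 fell at 2 mM (median 0.08), among them PSMA5 (0.19 and 0.16) and the assembly chaperones PSMG1 (0.18 and 0.16) and PSMG3 (0.22 and 0.36). Of 5 activators and inhibitors, 2 rose at each concentration: PSME2, a subunit of the interferon-inducible PA28 cap, by 0.19 and 0.15, and PSME3, of the nuclear cap, by 0.10 and 0.31, with a difference between concentrations of −0.21 (limma adjusted p = 0.00498). PSME1, the partner of PSME2, had −0.01 and 0.08 and did not pass. Of 9 tested ligands of NK and T cell receptors, 1 rose and 1 fell at 40 mM and 2 rose and 2 fell at 2 mM, with the poliovirus receptor PVR at 0.11 and 0.16 and CD276 at −0.14 and −0.13. Of 6 class I turnover genes, 1 rose and 2 fell at 40 mM, and 0 rose and 0 fell at 2 mM by limma, where 2 had an unadjusted p under 0.05 for a rise and 0 for a fall. Of 12 class II presentation genes 2 could be tested, CIITA, the class II activator, and IFI30, a thiol reductase, and neither passed (limma adjusted p of 0.126 and 0.379 at 40 mM, 0.205 and 0.175 at 2 mM; 0 at an unadjusted p under 0.05).

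**Figure D5:**
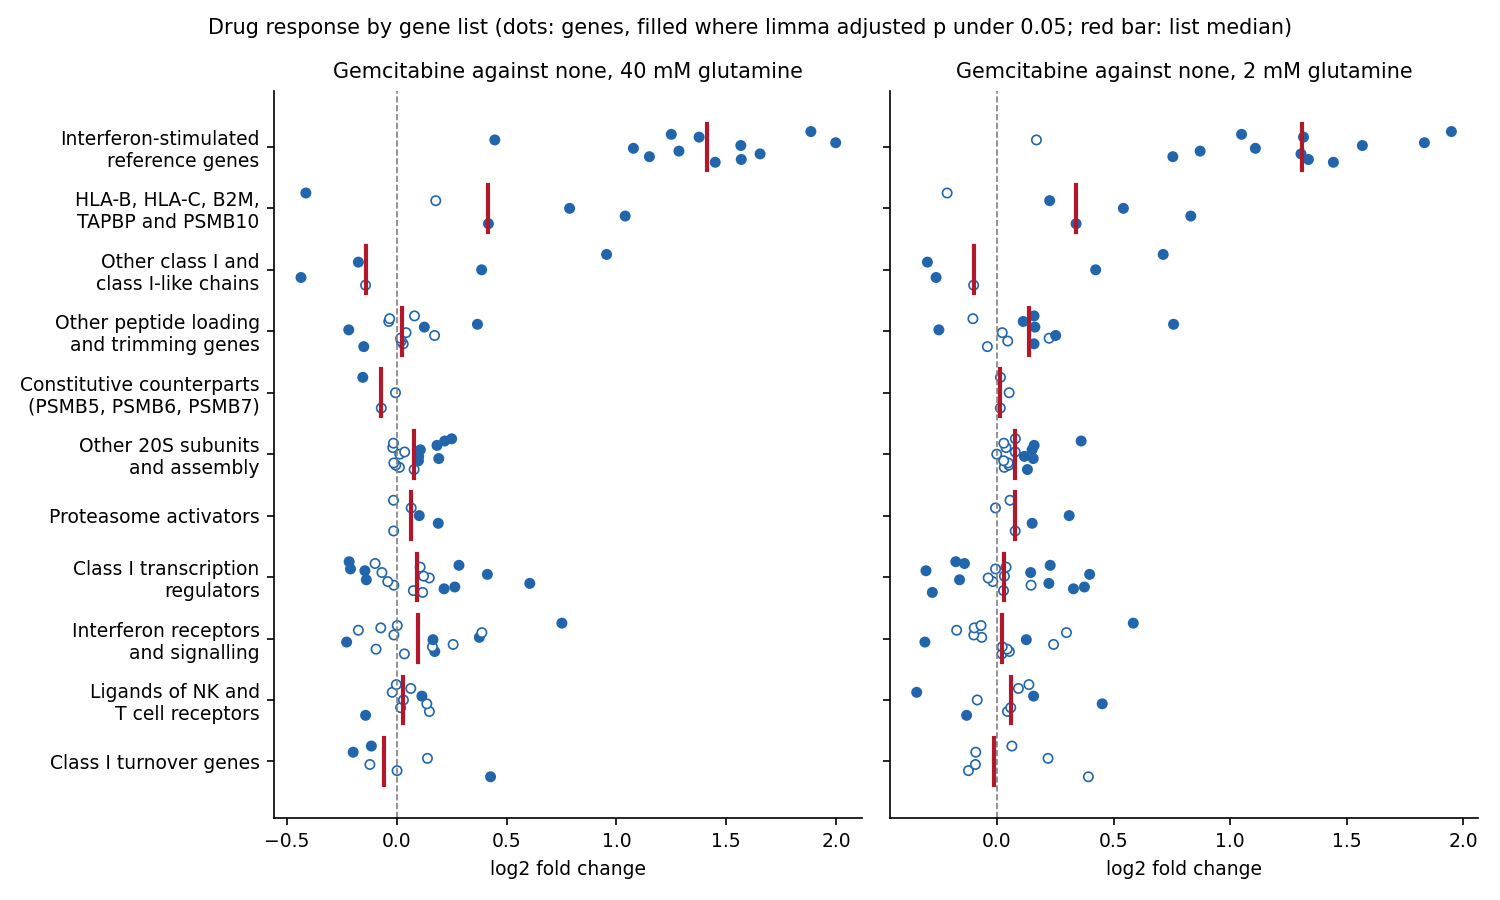
Log2 fold change with gemcitabine of each tested gene (dots) in 11 gene lists, at 40 mM (left) and 2 mM glutamine (right); filled dots passed limma's adjusted p of 0.05 and red bars are list medians. The interferon-stimulated reference genes have medians of 1.41 and 1.31, the 5 class I genes 0.42 and 0.34, and the medians of the other 9 lists plotted lie between −0.14 and 0.14. The class II list, with 2 tested genes and medians of 0.21 and 0.20, is not plotted.

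Markers of the line and of other cell types were read beside these results. KRT8, KRT18, KRT19, CLDN4 and VIM summed to 5728 to 7543 RPM over the 12 libraries, while KRT7, EPCAM and CDH1 are not in the table analysed. Of 12 leukocyte markers 3 are in the table: CD14 and LYZ stayed under 1 RPM, and PTPRC and CD3E are not among the listed genes. CD68, a lysosomal protein abundant in macrophages, had 43.1 ± 0.34 RPM at 40 mM with gemcitabine and 21.0 ± 1.53 RPM without drug, and 43.2 ± 0.73 RPM at 2 mM with gemcitabine and 19.8 ± 0.58 RPM without drug (SD, n = 3), and it rose by 1.01 and 1.09 on the log2 scale. The 3 leukocyte markers summed to 43.9 to 44.1 RPM at 40 mM with gemcitabine and 20.1 to 23.1 RPM without drug, and to 43.4 to 45.0 RPM at 2 mM with gemcitabine and 19.6 to 21.3 RPM without drug, so this sum moved with the heavy chains; its part in them was not tested. Of 9 fibroblast and endothelial markers 4 are in the table, nearly all of their sum being COL1A2; they summed to 664 to 717 RPM at 40 mM with gemcitabine and 882 to 911 RPM without drug, and to 597 to 645 RPM at 2 mM with gemcitabine and 761 to 785 RPM without drug. That sum was lower with the drug, as TAPBP was, and its part in the result was not tested; the endothelial gene CDH5 stayed under 1 RPM. In RNA of whole cultures, a change in the share of cells that express a gene and a change in RNA per cell cannot be told apart.

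TAP1, TAP2, PSMB8 and PSMB9 lie between HLA-C and TAPBP in the MHC region of chromosome 6. Of the 95 protein-coding genes from HLA-C through TAPBP in RefSeq, 25 (26.3%) are among the genes listed. By the same annotation, 36 of the next 50 past TAPBP are listed (72.0%). The shares are 584 of 1049 on the whole chromosome (55.7%) and 12745 of 20056 in all (63.5%). Around B2M 36 of the 50 nearest genes are listed, and around PSMB10 41 of 50 (82.0%). A gene not in the table has no value here, and its level in these cells was not analysed.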

How the data were processed

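Total RNA of 12 MIA PaCa-2 cultures in 4 groups of 3 was sequenced. The authors deposited 1 table of log2 values; per the file headers, each column is named as the library in a sample title. The log2 values equal log2(RPM + 1), with RPM as reads per 1000000, worked out from the values: in all libraries 100% of genes gave whole reads within 0.05 read, after scaling factors between libraries of 0.9794 to 1.0292 (1.0263 or more in the 3 libraries at 40 mM with gemcitabine, 1.002 or less in the other 9). The authors' aligner, counter, strand setting and genome build: not given in the sources used here.

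Genes with at least 1 RPM in 3 or more libraries (12789; the other 2301 were not tested) were fitted with limma 3.58.1 in R 4.3.3 on the deposited log2 values, with a mean for each group, all 12 libraries and a mean-variance trend, and Benjamini-Hochberg adjustment over all tested genes at 0.05. Ratios and sums were compared by exact permutation tests in scipy 1.17.1, 3 against 3, adjusted over 12 tests. Intervals of counting error cover counting only. Motifs and alignments (Biopython 1.88) used RefSeq windows; the region shared by PSMB9 and TAP1 is not shown, since those genes have no values here. Genes outside the class I set were named by a rule: all tested genes of lists with at most 5, and up to 4 of longer lists by smallest adjusted p with the drug at 40 mM; not all of them are reported here. The class I genes and the lists were chosen with earlier results of these data known. Alternatives changed the pseudocount, filter, scaling, moderation, weights, block and libraries.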

Additional observations from a re-analysis of the deposited data

How the results depend on the processing

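The drug's effects on HLA-B, HLA-C and B2M at both glutamine concentrations, and on TAPBP at 40 mM, kept direction and call in all 23 alternative analyses each. Of 570 alternative values for single genes, 536 kept direction and side of the threshold. Between 40 and 2 mM glutamine without drug, the count of lower genes became 1 with a filter at 5 RPM, quantile normalization, robust moderation or the replicate block, and was 0 to 1 with a library left out; the gene was HLA-B. Between drug-treated cells, the count of higher genes was 2 with RPM left without the scaling factors (HLA-B at 0.13, limma adjusted p = 0.0368, joined B2M), 0 without the trend, and 0 to 1 with a library left out. The count of higher genes in the interaction was 1 with unscaled RPM and with quantile normalization, and 0 to 1 with a library left out. The interaction called 281 genes in all, 0 without the trend, and 155 to 366 with a library left out. The count of lower genes with the drug at 2 mM became 1 without the trend (TAPBP, limma adjusted p = 0.0381). The cause of these changes was not tested.

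Direction reversed in 13 values, all between drug-treated cells, none called and none larger than 0.057: TAPBP at 0.00054 (pseudocount 5 RPM), 0.048 (unscaled RPM) and 0.0037 (voom), HLA-C at −0.019 (quantile) and −0.0055 (voom), and 8 values with a library left out. Over the libraries left out there, TAPBP ran between −0.066 and 0.057, HLA-C between −0.052 and 0.055, and PSMB10 between −0.017 and 0.072. Unscaled RPM moved the split of higher and lower genes: 2460 and 1452 at 40 mM with against without drug (1809 and 2070 as deposited), 2017 and 941 at 40 against 2 mM with drug (1102 and 1663; 1245 and 1239 with quantile normalization), and 1445 and 917 without drug (1076 and 1166). The labels state no pairing of replicate numbers. Deviations of same-numbered replicates from their group means had correlations of −0.077 to 0.048 over the tested genes. Such values show no large shared deviation but cannot show that no libraries were paired. With the replicate block HLA-B passed at 40 against 2 mM without drug (−0.13, limma adjusted p = 0.0325), and no other call of the 5 genes changed. The ratios of PSMB8 to PSMB5 and of PSMB9 to PSMB6 were not run, since those genes are not in the table analysed; the PSMB10 to PSMB7 ratio kept its direction throughout. With 3 libraries a group, an exact test cannot go below 0.1, and HLA-C and TAPBP rest on the fewest reads.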
